A study of Mus musculus with 10 samples.

Results

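The components of the mTOR complexes were examined in gastrocnemius muscle of obese mice given an antisense inhibitor of miR-22. The group holds 10 genes of the 21098 in the count table, namely Mtor, Rptor, Rictor, Mapkap1, Mlst8, Akt1s1, Deptor, Prr5, Rheb and Tti1. These were chosen by symbol with earlier results of the same libraries known, so edgeR's calls for them are given only as a description, with no p-value, and support nothing by themselves. All mice were wild type C57BL/6J males (C57BL/6JBomTac in the study's methods) on a high fat diet (D12492i) from 9 weeks of age, and treatment began after 9 weeks of diet. In the weight records of the study several control mice were lighter at the start of treatment than any treated mouse, and the part of starting weight in the values was not tested. The control mice (CTRL) were injected under the skin with saline and the treated mice (ASO) with the anti-miR-22 oligonucleotide RES-010 at 10 mg/kg, weekly for 14 weeks, and the labels give an age of 30 weeks for both groups. Each group has 5 libraries, each from a separate mouse, and the controls received no oligonucleotide of another sequence, so that what any such oligonucleotide does and what inhibition of miR-22 does cannot be told apart. Polyadenylated RNA with an integrity number over 7 was made into stranded libraries, and in whole muscle fewer cells of a type and less RNA per cell cannot be told apart.

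The kinase mTOR works in a pair of complexes. In mTORC1 it is joined by Raptor (Rptor), which brings in substrates, and this complex turns growth factors, amino acids and energy status into protein synthesis, cell growth and restraint of autophagy. In mTORC2 it is joined by Rictor and mSIN1 (Mapkap1), and this complex phosphorylates Akt and related kinases. mLST8 (Mlst8) and DEPTOR (Deptor) are found in both, PRAS40 (Akt1s1) is an inhibitor of mTORC1, Protor-1 (Prr5) belongs to mTORC2, the small GTPase Rheb activates mTORC1 at the lysosome, and Tti1 is part of a chaperone that assembles kinases of this family. In skeletal muscle mTORC1 is a main driver of load-induced and insulin-induced growth.

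The inhibitor is directed at miR-22-3p, and whether the components carry matches to its seed bears on how their values may be read, so that the sequences are shown first. The mature miRNA is given as RefSeq lists it for GRCm38.p6, with bases 2 to 8, the seed, in capitals.
mmu-miR-22-3p: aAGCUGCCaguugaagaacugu
The complement of the seed, GGCAGCT, was sought on the sense strand of the 3′ untranslated region of the main (Ensembl canonical) transcript of each gene on GRCm39. It was present in 1 of the 10 components, against 13.9% of 21095 genes, with a median length of these regions of 1670.5 bp in the components and 1065 bp over all genes. That gene is Prr5, with a match at 2 positions on the plus strand, shown with the match in capitals.
Prr5, chr15:84588414-84588443: aaaaataggacaggaGGCAGCTatttatgc
Prr5, chr15:84590000-84590029: cccactccctttccaGGCAGCTccatcttt
Prr5 had 0 counts in all 10 libraries, so the gene with seed matches has no value here. In the other 9 components these letters are not in the region searched, which says nothing about sites of other kinds.

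The table gives counts on segments of at most 500 bp at the ends of annotated transcripts, and a read pair that falls on several segments is not counted for any of them. Library totals were between 1606909 and 2116720 counts in CTRL and between 2239186 and 2632560 in ASO, so every treated library was deeper. Levels are normalized counts in CPM (relative to the library size after TMM scaling), and fold changes are log2 values of ASO over CTRL with their standard error (SE) from edgeR. A gene is called when edgeR's quasi-likelihood test gives it a p-value under 0.05 after Benjamini-Hochberg adjustment over the 7813 genes tested. Summed over 10 markers of skeletal myofibres, levels were between 43261 and 81795 CPM in CTRL and between 87463 and 134533 CPM in ASO, with Ckm and Atp2a1 of 3 tested markers called higher and Tnnt3, Pygm and Mb listed at 0. Of the markers of other cell types, Mrc1 (macrophage) and Lum (fibroblast) were called lower, and no marker of endothelial cells, adipocytes, Schwann cells or blood was called. The 7 macrophage markers, 5 of them tested, summed to between 68.8 and 526 CPM in ASO and between 228 and 1389.5 CPM in CTRL, and Adgre1 and Cd163 were at 0. The 5 fibroblast markers came to between 37.9 and 254 CPM in ASO and between 189 and 338 CPM in CTRL, with Dcn at 0. The part of these cell types in the values below was not tested.

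Of the 10 components, 8 had enough counts to be tested. Mtor was called higher in ASO, Rptor, Mapkap1 and Mlst8 were called lower, and Rictor, Rheb, Akt1s1 and Deptor were not called. The 4 called stand beside 29.2% called among all tested genes, 11.8% higher and 17.4% lower. The groups did not overlap for 3 components, all lower in ASO, beside 21.4% of all tested genes in either direction. The median log2 fold change was −0.09 over the 8 components and −0.03 over all tested genes.

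**Figure D1:**
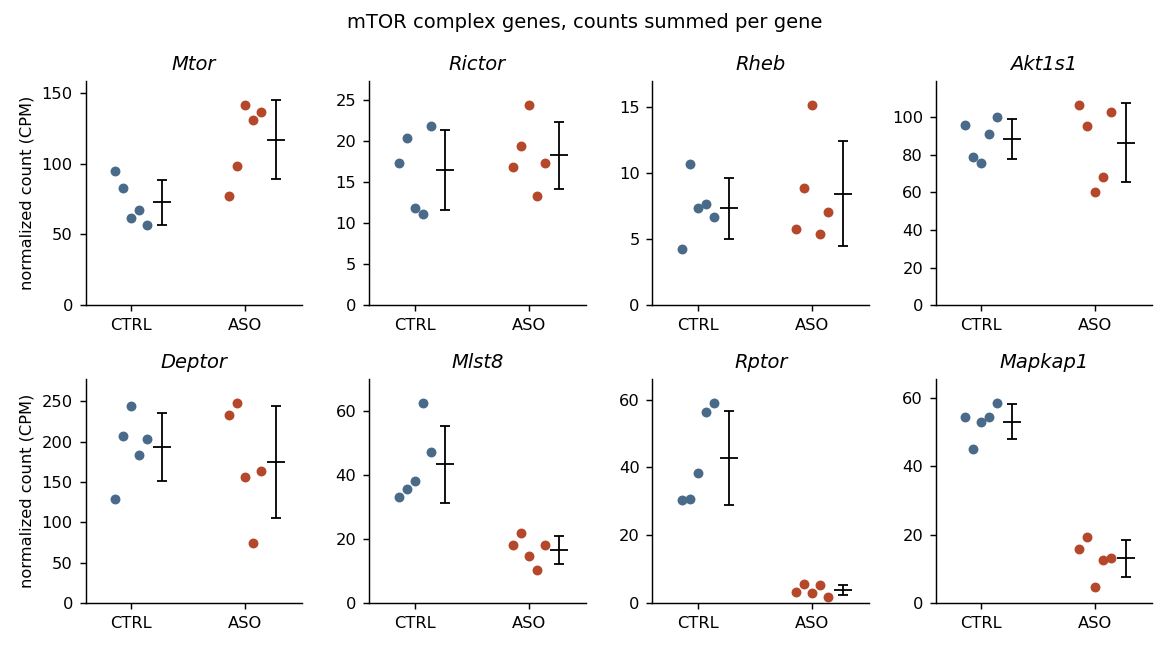
Normalized counts (CPM, y axis, from 0) of the 8 tested components in each CTRL and ASO library (points), with the mean and SD of 5 libraries (black bars). Rptor, Mapkap1 and Mlst8 lie lower in every ASO library, with ASO means of 3.81, 13.1 and 16.7 CPM against 42.9, 53.0 and 43.4 CPM, and the other 5 genes overlap between the groups.

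Mtor, the kinase of both complexes, was higher in most treated muscles. Its levels were 77.1, 98.6, 141, 131 and 137 CPM in ASO replicates 1 to 5 and 95.0, 82.8, 61.3, 67.3 and 56.9 CPM in CTRL replicates 1 to 5. Thus 4 of 5 ASO libraries were above every CTRL library, and ASO replicate 1 lay among them. The means were 117 ± 27.9 CPM (SD, n = 5) and 72.7 ± 15.9 CPM (SD, n = 5), a log2 fold change of 0.69 (SE 0.20). Almost all of these counts (98.8%) came from a single segment, chr4:148641641-148642140 on the plus strand of GRCm39, the last 500 bp of exon 58 of 58 in the untranslated region. The call was lost when total counts replaced TMM (0.51), with the replicate number as a block (0.68), with the most distal segment of each gene alone (0.43), and when ASO replicate 5, CTRL replicate 4 or CTRL replicate 5 was left out, while the log2 fold change stayed between 0.61 and 0.82 over the 10 fits without a library.

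Rheb and Rictor were each read from a segment at the end of the gene without overlap by others. Rheb, the activator of mTORC1, had 5.75, 8.85, 15.1, 5.39 and 7.02 CPM in ASO and 4.21, 10.6, 7.35, 7.61 and 6.69 CPM in CTRL, with a log2 fold change of 0.21 (SE 0.34). Rictor, the defining subunit of mTORC2, had 16.8, 19.4, 24.3, 13.3 and 17.3 CPM in ASO and 17.3, 20.4, 11.8, 11.1 and 21.7 CPM in CTRL, with a log2 fold change of 0.14 (SE 0.24). In both genes the groups overlapped over most of their range, and the sign turned in some alternatives, with values from −0.15 to 0.26 for Rictor and, where leaving out ASO replicate 3 also turned it (−0.08), from −0.09 to 0.39 for Rheb. With 169 counts over the 10 libraries, Rheb had the largest SE of the 8 components that could be tested.

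Akt1s1, which encodes PRAS40, averaged 86.4 ± 21.1 CPM with the ASO and 88.1 ± 10.6 CPM without (SD, n = 5), and its log2 fold change was −0.03 (SE 0.18). The levels were between 60.0 and 106 CPM in ASO and between 75.5 and 99.8 CPM in CTRL, so that the ASO libraries spread to both sides of the controls. Of its 4 segments, 3 overlap each other and keep 13 bp of their own, and the other is 1 bp long and overlaps none of them. Of 1837 counts, 1371 were on this segment of 1 bp in exon 5 of 5, where Gm57218 is annotated on the opposite strand, and no strand option of the counting is named. The 2 counted segments had log2 fold changes of 0.08 (SE 0.21) and −0.02 (SE 0.19), and the value of the gene lay between −0.21 (total counts) and 0.11 (without ASO replicate 3) over the alternatives other than end segments alone.

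Deptor, the inhibitory subunit of both complexes, was not called as a gene, but its segments had unlike values. The sum over its segments was 233, 248, 156, 74.2 and 163 CPM in ASO and 129, 207, 245, 183 and 203 CPM in CTRL, a log2 fold change of −0.14 (SE 0.28) with groups that overlap and a sign that turned without ASO replicate 4 (0.08) and on the most distal segment (0.10). The segment at the end of its last exon, chr15:55122168-55122667 on the plus strand, had 230.5, 243, 156, 72.5 and 160.0 CPM in ASO and 114, 169, 177, 108 and 95.9 CPM in CTRL. On this segment alone the log2 fold change was 0.41 (SE 0.29), and the groups again overlapped.

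A second Deptor segment, chr15:55117099-55117598, lies in the same exon 5069 bp upstream and marks the end of a shorter annotated transcript. It had 1.44, 3.79, 0, 1.24 and 1.40 CPM in ASO and 10.3, 32.4, 53.0, 57.4 and 80.3 CPM in CTRL, a log2 fold change of −4.80 (SE 0.62). Every ASO library was below every CTRL library there. The other counted segment, in intron 4, chr15:55071782-55072281, was at most 1.87 CPM in ASO and between 4.68 and 26.8 CPM in CTRL, with a log2 fold change of −3.70 (SE 0.65). The share of Deptor counts off the end segment was thus at most 2.23% in ASO (replicate 4, 95% Wilson interval 0.872 to 5.60%). In ASO replicate 3 it was 0 of 372 counts (interval 0 to 1.02%). In CTRL it ran from 11.6% in replicate 1 (interval 8.36 to 16.0%) to 52.7% in replicate 5 (interval 47.6 to 57.8%). These intervals cover counting error only.

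**Figure D2:**
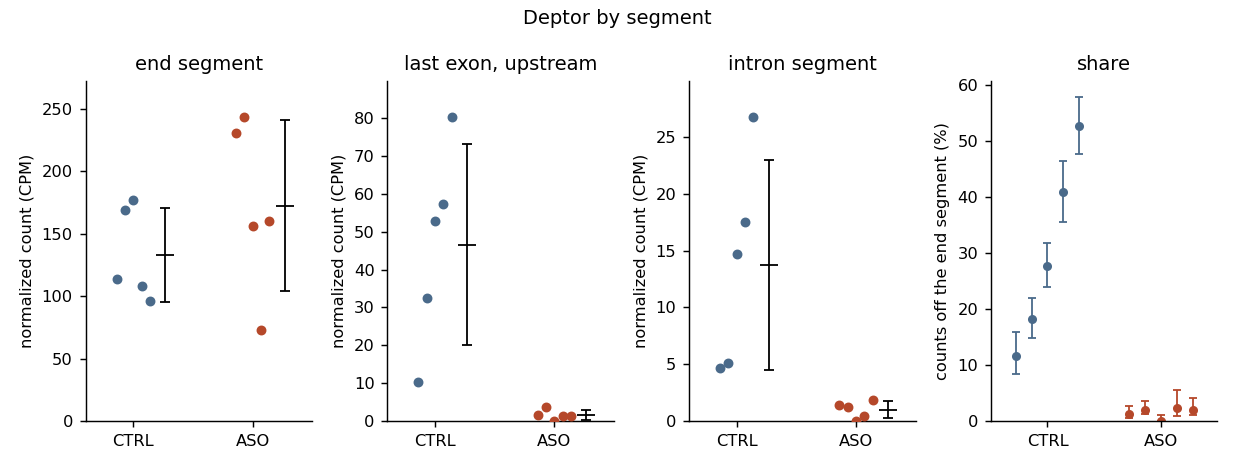
Normalized counts (CPM, y axis, from 0) of the 3 counted Deptor segments in each library (points, with the mean and SD of 5 libraries), and the percentage of Deptor counts off the end segment with its 95% Wilson interval. The end segment overlaps between CTRL and ASO, whereas the segment upstream in the last exon is at most 3.79 CPM in ASO and at least 10.3 CPM in CTRL.

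Rptor, the substrate-binding subunit of mTORC1, had 3.35, 5.48, 2.94, 5.39 and 1.87 CPM in ASO and 30.4, 30.5, 38.2, 56.2 and 59.1 CPM in CTRL. The highest ASO library was below the lowest CTRL library, and the log2 fold change was −3.46 (SE 0.32). With 4 to 13 counts per ASO library, Rptor passed the filter on counts only with its CTRL libraries. It could not be tested where 10 counts were asked of every library. Of its counts, 99.3% came from 3 segments of transcripts annotated as targets of nonsense-mediated decay, which lie partly in introns of the main transcript. These are chr11:119786480-119786979 (exon 32 of 34 and the introns beside it), chr11:119775294-119775793 (intron 24 and exon 25) and chr11:119737282-119737781 (exon 16 and the introns beside it), all on the plus strand. Their log2 fold changes were −2.97 (SE 0.35), −3.46 (SE 0.47) and −4.20 (SE 0.52). The 3 segments at the end of Rptor overlap each other, keep 169 bp of their own and held 3 counts in all, so that the end of the main Rptor transcript was not measured.

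Mapkap1, which encodes the mTORC2 subunit mSIN1, had 15.8, 19.4, 4.62, 12.4 and 13.1 CPM in ASO and 54.3, 44.9, 53.0, 54.5 and 58.5 CPM in CTRL. The groups did not overlap, and the log2 fold change was −2.02 (SE 0.27). With 11 counts in ASO replicate 3, Mapkap1 also passed the filter on counts only with its CTRL libraries. Of its counts, 99.9% were on 1 segment of a transcript annotated as a target of nonsense-mediated decay, chr2:34387386-34387885 on the plus strand, which covers 327 bp of intron 4 and 173 coding bp of exon 5 of 12 and lies 127085 bp before the end of the main transcript. The 2 segments at that end share all but 2 bp and held 1 count.

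Mlst8, the small subunit of both complexes, had 18.2, 21.9, 14.7, 10.4 and 18.3 CPM in ASO and 33.2, 35.6, 38.2, 62.7 and 47.4 CPM in CTRL. Here too every ASO library was below every CTRL library, with a log2 fold change of −1.37 (SE 0.23). About 66.4% of its counts were on chr17:24694276-24694775 on the minus strand, in the last exon 1751 bp before the main end, where the log2 fold change was −1.25 (SE 0.25), and 135 bp of this segment also belong to a segment of the opposite strand. The remaining 33.6% were on chr17:24695299-24695798, which covers 375 bp of intron 5 and 125 coding bp of exon 6 of 8, with a log2 fold change of −1.52 (SE 0.31). The 5 segments at the end of Mlst8 share all but 1 bp and held 0 counts.

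Prr5 and Tti1 had 0 counts in every library. Their segments keep 1 and 9 bp of their own, so a count of 0 says little about these genes. The limit of 3 counts per library comes to between 1.24 and 1.76 CPM and applies only to those bases. No fold change is given for them.

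The 10 genes have 34 segments, of which 12 have no base of their own, 17 have counts and 14 could be tested one by one. Whether a component was higher or lower went with where its counted segments lie. Of 6 tested segments within 1000 bp of the main end, 1 (Mtor) was called higher and 0 lower by edgeR, and also 0 lower at an unadjusted p under 0.05. Of 6 tested segments in introns, 6 were called lower, and of 2 segments further upstream in the last exon, 2 were called lower. Among these, the Rptor and Deptor segments had at most 3.37 and 3.79 CPM in ASO and passed the filter on counts only with CTRL libraries. This also held for the intron segment of Mlst8, with 8 to 18 counts per ASO library, and for that of Mapkap1, with 11 counts in ASO replicate 3. For all these segments a call of lower was partly set by the filter. How many segments of the whole table this concerns was not counted. The split between end segments and those in introns or further upstream was also present over the whole table. Of 5819 segments at the main end, 21.6% were called higher and 8.21% lower, of 2436 upstream segments of the last exon 8.7% higher and 42.2% lower, and of 1751 intron segments 7.65% higher and 52.4% lower. The median log2 fold changes in these classes were 0.22, −0.51 and −0.82. Another 646 tested segments, mostly in neither the last exon nor introns, had a median of −0.08, and none of them belongs to a component. A polyadenylation hexamer, AATAAA or ATTAAA on the sense strand in the last 50 bases of the segment, was present in 4 of the 6 tested end segments of the components, in 0 of 6 intron segments and in 1 of 2 upstream segments (that of Mlst8). Over all tested segments the share was 75.7% at the main end, 19.2% in introns, 41.7% upstream in the last exon and 42.1% in the 646 others.

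Within their class the components' segments differed in rank. The end segment of Mtor was above 88.7% of all end segments in log2 fold change, that of Deptor above 64.9%, those of Rheb and Rictor above 52.1% and 47.3%, and those of Akt1s1 above 39.6% and 34.2%. The upstream Deptor segment had only 0.0411% of its class below it, and the 3 Rptor segments 5.54%, 2.34% and 0.514% of theirs. The segments of Mapkap1 and Mlst8 lay nearer the middle, with 19.6% of intron segments below Mapkap1, 29.9% below the intron segment of Mlst8, and 27.8% of the upstream segments below its other one.

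**Figure D3:**
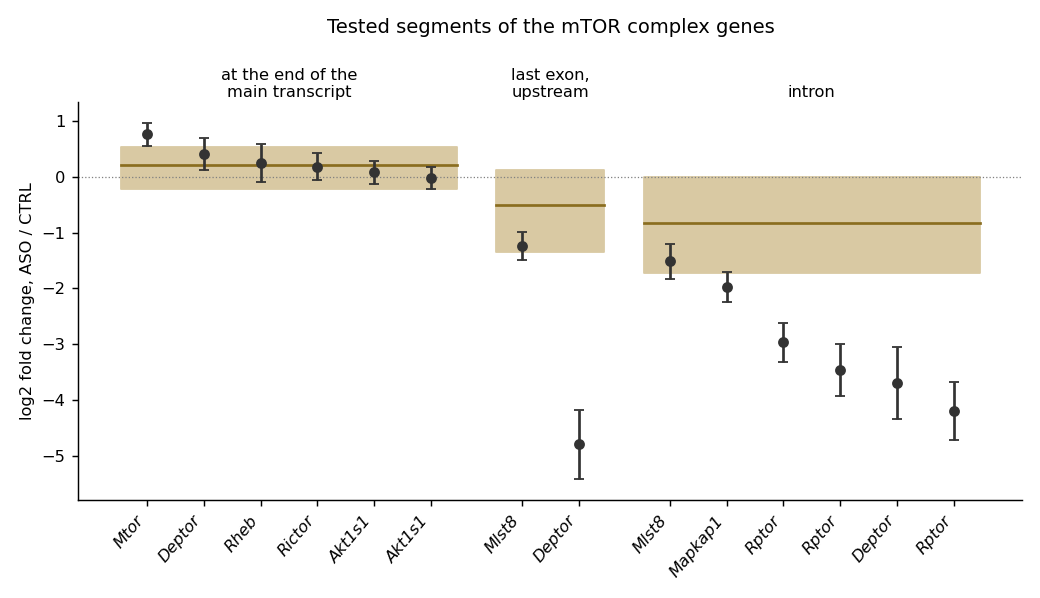
Log2 fold change of ASO over CTRL (y axis, with SE) of the 14 tested segments of the components, grouped by where the segment lies, with the median (line) and the middle 50% (shaded) of all tested segments of that class. The end segments lie between −0.02 and 0.76, and the 8 segments upstream or in introns between −4.80 and −1.25.

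The libraries differed in the same direction in how their counts were spread over these classes, also with the 10 components left out. Segments at the main end took 64.7 ± 1.14% of counts in ASO and 59.8 ± 2.34% in CTRL, upstream segments of the last exon 16.7 ± 0.522% and 20.2 ± 1.09%, and intron segments 7.87 ± 0.400% and 11.2 ± 1.07% (SD, n = 5 each). The groups did not overlap in any of the 3 shares, and each gave p = 0.0079 in a two-sided exact permutation test, the smallest that 5 against 5 libraries can give (adjusted over the 3 shares, 0.0079). Among CTRL libraries, replicate 5 had the largest intron share (12.6%) and the largest share of Deptor counts off the end segment. The smallest intron share was in replicate 2 (9.76%), but the smallest Deptor share was in replicate 1 (11.6%). The part of this difference between libraries in the values of Rptor, Mapkap1, Mlst8 and the upstream Deptor segments was not tested.

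**Figure D4:**
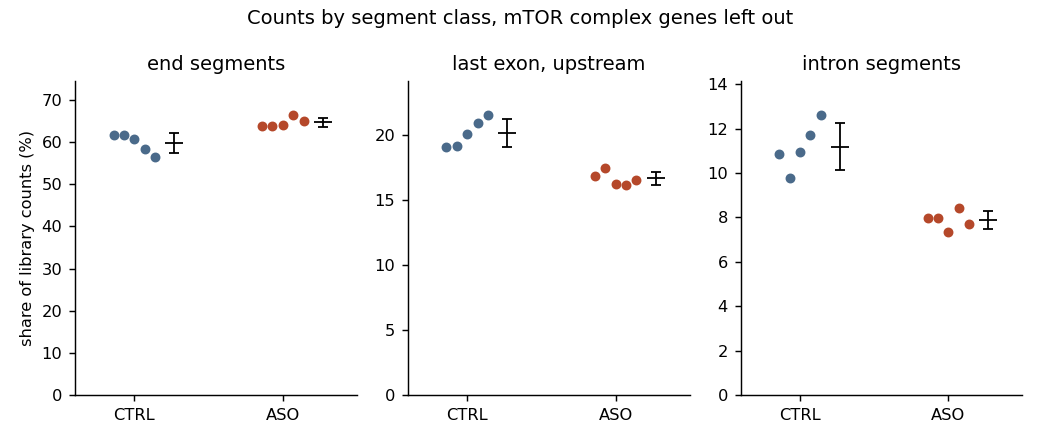
Percentage of each library's counts (y axis, from 0) on segments at the main end, upstream in the last exon and in introns, for CTRL and ASO libraries (points) with the mean and SD of 5 libraries, the mTOR components left out. Every ASO library is higher in the first share, and lower in the intron share, with at most 8.40% against at least 9.76% in CTRL.

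As a further alternative, chosen after the data had been seen, genes were summed over end segments alone. This left 5 components, of which 0 were called by edgeR (1 higher at an unadjusted p under 0.05), beside 15.0% of 5472 genes. The log2 fold changes were 0.52 (SE 0.18) for Mtor, 0.18 (SE 0.30) for Deptor, 0.00 (SE 0.31) for Rheb, −0.06 (SE 0.24) for Rictor and −0.23 (SE 0.19) for Akt1s1. Summed over intron segments alone, Rptor was at −2.69, Mapkap1 at −1.28 and Mlst8 at −0.79 relative to intron segments of other genes, and these 3 of 3 were called lower, beside 30.0% of 1439 genes. Here too Rptor passed the filter on counts only with its CTRL libraries, and so did Mlst8, with 8 to 18 counts per ASO library.

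Levels of the components can be compared where a full segment of 500 bp at the main end was free of overlap, which held for 4 of them. The 7766 such segments of all genes were taken without a filter on counts, so they include genes with few or no counts. In CTRL muscle Deptor was highest of the 4 with 133 ± 37.5 CPM, above 94.3% of them, and Mtor followed with 70.8 ± 15.2 CPM, above 89.5%. Rictor had 16.5 ± 4.86 CPM, above 72.7%, and Rheb 7.30 ± 2.30 CPM, above 62.2% (SD, n = 5). The lowest CTRL library of Deptor (95.9 CPM) was just above the highest of Mtor (91.7 CPM), and the ranges of Mtor, Rictor and Rheb did not overlap in CTRL. In ASO muscle the order of the means was the same, with 172, 116, 18.2 and 8.42 CPM, but the ranges of Deptor and Mtor overlapped, and so did those of Rictor and Rheb.

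The genes around the complexes were followed in 6 lists with 79 genes, written with earlier results of these libraries known, none of which holds a component. Of the 53 tested, 5 rose and 14 fell (adjusted p under 0.05, edgeR), beside 11.8% higher and 17.4% lower among all genes tested. Their log2 fold changes had a median of 0.02, that of all genes being −0.03. Summed over end segments alone, 42 could be tested, of which 3 rose and 4 fell, beside 6.21% higher and 8.79% lower among all genes on these segments.

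Among the brakes on the pathway, 3 of 8 tested genes fell and 0 rose in edgeR's test, also 0 at an unadjusted p under 0.05 and with DESeq2 or limma-voom. On end segments alone 1 of 5 rose and 0 fell, also 0 at an unadjusted p under 0.05. That gene was Gsk3b, a kinase that activates the Tsc1-Tsc2 complex, named after its values were seen, with −0.37 as a gene (edgeR adjusted p = 0.26), 0.96 on end segments (adjusted p = 0.0074) and 0.87 on its most distal segment (adjusted p = 0.013). On intron segments alone 2 fell and 1 rose of 3, namely Tbc1d7, the further subunit of the Tsc complex, also named after its values were seen (0.70, edgeR adjusted p = 0.012, against 0.09 as a gene, adjusted p = 0.70). Tsc1 and Tsc2, which encode the complex that turns Rheb off, had 10.6 ± 2.55 against 44.7 ± 19.6 CPM (log2 fold change −2.07, SE 0.30, adjusted p = 0.00054) and 9.37 ± 2.82 against 29.2 ± 11.2 CPM (−1.62, SE 0.31, adjusted p = 0.0026) in edgeR's test. Grb10, an adaptor that restrains the insulin receptor, had 5.92 ± 2.12 against 32.1 ± 12.3 CPM (−2.43, SE 0.33, edgeR adjusted p = 0.00039). With 9 to 18 counts per ASO library it passed the filter on counts only with its CTRL libraries. In these 3 genes every ASO library was below every CTRL library. None of them has enough counts at the main end to be tested there, since 100% of the Grb10 counts and 78.1% of the Tsc1 counts were upstream in the last exon and 84.0% of the Tsc2 counts in introns. Ddit4, an mTORC1 inhibitor induced by stress, had 23.5, 23.6, 21.8, 67.9 and 21.1 CPM in ASO and 12.2, 18.0, 20.6, 15.2 and 32.9 CPM in CTRL, with a log2 fold change of 0.68 (SE 0.37, edgeR adjusted p = 0.19) that was 0.21 without ASO replicate 4.

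In the machinery that senses amino acids, 1 gene rose and 2 fell of 13 tested. Wdr24, a subunit of GATOR2, rose from 8.09 ± 4.80 to 16.1 ± 4.91 CPM (log2 fold change 1.01, SE 0.35, edgeR adjusted p = 0.046). The call was lost in 7 of the 10 fits without a library (all but those without ASO replicate 2, ASO replicate 4 or CTRL replicate 4), with an adjusted p of up to 0.11, and with total counts, the replicate block, the most distal segment (0.72) or end segments alone (0.81, adjusted p = 0.13). Depdc5 of GATOR1 fell from 10.2 ± 2.42 to 3.06 ± 1.20 CPM (−1.71, SE 0.31, edgeR adjusted p = 0.0018), with 60.4% of its counts in introns. It had 5 to 12 counts per ASO library and passed the filter on counts only with its CTRL libraries. Itfg2 of the KICSTOR complex fell from 37.3 ± 8.51 to 21.7 ± 4.67 CPM (−0.77, SE 0.20, edgeR adjusted p = 0.012), and on end segments alone it was at −0.47 (adjusted p = 0.18).

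On the lysosomal platform, where Rag GTPases and the Ragulator recruit mTORC1, 1 gene rose and 2 fell of 8 tested, and these were read entirely from end segments. Lamtor4 had 223, 179, 249, 188 and 261 CPM in ASO and 165, 142, 135, 122 and 138 CPM in CTRL (0.65, SE 0.14, edgeR adjusted p = 0.0059). Lamtor3, another Ragulator subunit, had 133, 123, 110.0, 118 and 93.1 CPM in ASO and 202, 149, 155, 156 and 186 CPM in CTRL (−0.55, SE 0.14, edgeR adjusted p = 0.011). Rraga, a Rag GTPase, fell by 0.39 on the log2 scale (SE 0.12, edgeR adjusted p = 0.032), from 105 ± 6.39 to 79.9 ± 10.2 CPM. The groups did not overlap in any of the 3, and on end segments alone all 3 were called in the same directions, while Lamtor4 lost its call on the most distal segment (0.35, adjusted p = 0.10). The call of Rraga was lost in 8 of the 10 fits without a library (all but those without ASO replicate 2 or CTRL replicate 3, adjusted p up to 0.10) with upper quartile scaling (adjusted p = 0.089), without a filter (0.11) and with the replicate block (0.069).

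Among substrates and effectors of mTORC1, 3 of 10 tested genes rose and 3 fell. Eif4ebp2, a repressor of cap-dependent translation that mTORC1 inactivates, had 843, 639, 676, 584 and 1138 CPM in ASO and 347, 409.5, 292, 375 and 342 CPM in CTRL (1.14, SE 0.19, edgeR adjusted p = 0.0012). It was read from a full segment at the main end, its groups did not overlap, and it kept its call on end segments alone (0.94, adjusted p = 0.0074). Eif4b, a cofactor of the helicase in translation initiation, rose from 238 ± 37.3 to 367 ± 80.2 CPM (0.62, SE 0.17, edgeR adjusted p = 0.016), and lost its call on end segments alone (0.43, adjusted p = 0.091), on the most distal segment (0.34, adjusted p = 0.17) and with the replicate block (adjusted p = 0.060). The autophagy kinase Ulk1, named after its values were seen, was the other gene that rose (0.43, SE 0.14, edgeR adjusted p = 0.031). Its call was lost on end segments alone (0.26, adjusted p = 0.22), on the most distal segment (0.18), with total counts (0.26), without a filter, with the replicate block, and in 6 of the 10 fits without a library (all but those without ASO replicate 1, 3 or 4 or CTRL replicate 2).

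The 3 effectors that fell were read mainly away from the main end. Lpin1, a phosphatidate phosphatase and regulator of lipid genes, fell from 321 ± 27.1 to 113 ± 38.5 CPM (−1.50, SE 0.21, edgeR adjusted p = 0.00047), with 98.3% of its counts upstream in the last exon. The cap-binding protein gene Eif4e fell from 203 ± 32.3 to 120.3 ± 18.6 CPM (−0.76, SE 0.15, edgeR adjusted p = 0.0035), with 96.7% upstream, and its end segments, with 3.30% of its counts, were at −0.86 (SE 0.39, adjusted p = 0.16). The S6 kinase gene Rps6kb2 fell from 41.9 ± 7.81 to 26.6 ± 3.37 CPM (−0.66, SE 0.16, edgeR adjusted p = 0.010), with 97.7% in introns, and relative to intron segments of other genes it was at 0.094 (adjusted p = 0.61).

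Around mTORC2, 3 of 9 tested genes fell and 0 rose, with 1 higher at an unadjusted p under 0.05 in edgeR and 0 called higher by DESeq2 and limma-voom. That gene was Irs1, the insulin receptor substrate, named after its values were seen, with 0.70 (SE 0.30, edgeR adjusted p = 0.092) and a call with the replicate block (0.76, adjusted p = 0.023) and without ASO replicate 4 or CTRL replicate 2. Pdpk1, the kinase that phosphorylates Akt in its activation loop, had 21.6, 45.9, 31.5, 29.0 and 28.5 CPM in ASO and 77.7, 71.3, 77.0, 94.3 and 123 CPM in CTRL (−1.49, SE 0.21, edgeR adjusted p = 0.00051), and on end segments alone it was at −0.95 (adjusted p = 0.024). Sgk3, a kinase related to Akt, fell from 12.1 ± 3.41 to 5.38 ± 1.26 CPM (−1.15, SE 0.28, edgeR adjusted p = 0.0094), and kept its call on end segments alone (−1.30, adjusted p = 0.0061). With 7 to 16 counts per ASO library, Sgk3 passed the filter on counts only with its CTRL libraries, also on end segments alone. Akt2, the Akt form that serves insulin-stimulated glucose uptake, had 75.2, 123, 60.9, 64.6 and 72.5 CPM in ASO and 95.9, 112, 133, 135 and 141 CPM in CTRL (−0.64, SE 0.20, edgeR adjusted p = 0.029). Its direction depended on the segment, since 79.1% of its counts were upstream in the last exon and the end segments alone gave 0.79 (adjusted p = 0.050). The call was also lost in 6 of the 10 fits without a library (all but those without ASO replicate 2 or CTRL replicate 1, 2 or 3), with an adjusted p of up to 0.086, and without a filter (0.057).

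Of the assembly factors, 1 of 5 tested genes fell and 0 rose, with 1 higher at an unadjusted p under 0.05 in edgeR and 0 called higher by DESeq2 and limma-voom. Ruvbl2, a helicase of the chaperone that works with Tti1, fell from 44.3 ± 5.94 to 25.03 ± 6.27 CPM (−0.82, SE 0.19, edgeR adjusted p = 0.0077) without overlap of the groups. Of its counts, 100% were on segments mostly in neither its last exon nor introns and 0% at the main end, which was thus not measured. Tti2, a direct partner of Tti1, had 7.06 ± 1.27 CPM in ASO and 6.01 ± 2.15 CPM in CTRL (0.23, SE 0.28, edgeR adjusted p = 0.58), with 15.1% of its counts at the main end. The further partner Telo2 had 0 counts. Of the paralogs, Prr5l had 14 counts and Rhebl1 47 counts in all, too few to be tested.

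**Figure D5:**
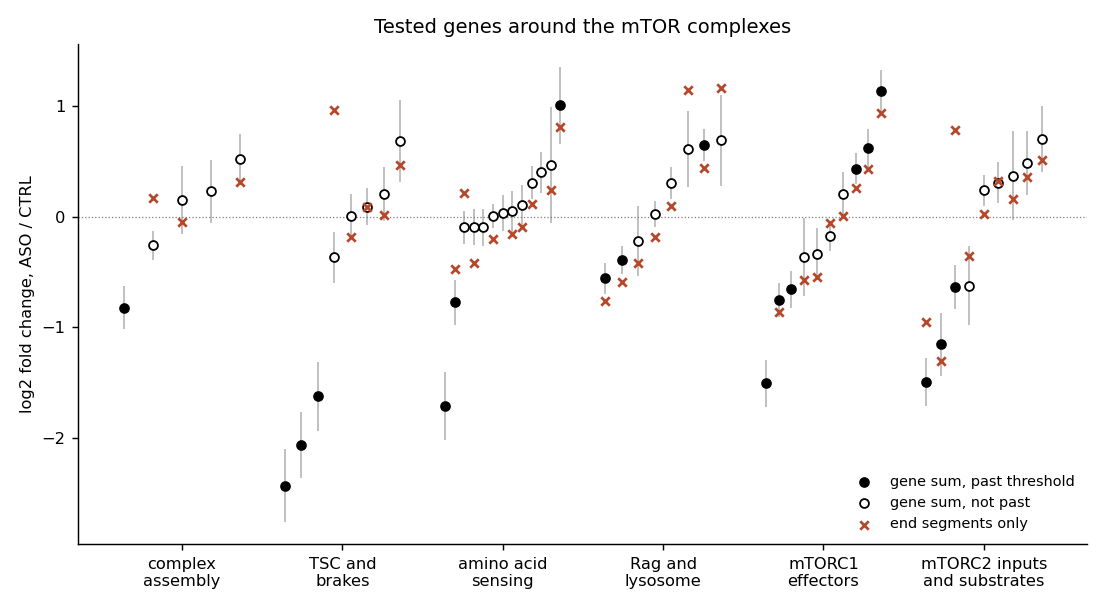
Log2 fold change of ASO over CTRL (y axis) of the 53 tested genes around the complexes in 6 lists, with SE (grey), filled where the adjusted p is under 0.05, and with the value from end segments alone (crosses) where it could be tested. The 14 filled points below 0 include several without a cross, such as Tsc1, Tsc2 and Grb10, and Akt2 has its point at −0.64 and its cross at 0.79.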

How the data were processed

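Gastrocnemius RNA of 5 ASO and 5 CTRL mice was sequenced. After trimming (fastp) and alignment to GRCm39 (STAR), the authors used featureCounts to count read pairs, only over the final 500 bp of each 3′UTR, naming Gencode M25 and no strand option. The deposited values are unnormalized counts on 52423 segments. Of these, 52361 were matched by transcript to GENCODE M39, the 62 others hold 0.0197% of counts, and 4 other per-sample columns were not used.

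Segments were summed per gene and classed by their place in the canonical transcript (end: within 1000 bp of its 3′ end, intron: mostly intronic bases). Genes were fitted with edgeR 4.0.16 in R 4.3.3 (TMM, filterByExpr, quasi-likelihood test, Benjamini-Hochberg over all tested genes). Each segment was also fitted on its own. DESeq2 1.42.0 and limma-voom (limma 3.58.1), other scalings and filters, the replicate number as a block, each library left out, thinned libraries and the most distal segment were alternatives, while end segments only and intron segments only were added after seeing the data. Procedures were tested on simulated data. The components and lists were chosen with earlier results of these data known. Named genes are the components, Ddit4, Telo2, Tti2, Prr5l, Rhebl1 and, per list, up to 5 genes past the threshold with at least 10 counts per library and the smallest adjusted p; a further gene of this rule is not reported here. Coordinates are 1-based on GRCm39.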

Additional observations from a re-analysis of the deposited data

Results flagged for a closer look

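In each group of 5 libraries, the highest or lowest value was set apart when its gap to the next one exceeded 0.71 of the range. This held for 4 of 88 groups examined among the named genes, where chance gives about 1 in 20. Wdr24 stood at 24.8 CPM in ASO replicate 5, with the next ASO library at 15.3 CPM, and at 16.4 CPM in CTRL replicate 4, with the next CTRL library at 7.96 CPM. Akt2 stood at 123 CPM in ASO replicate 2, with the next at 75.2 CPM. Ddit4 stood at 67.9 CPM in ASO replicate 4, with the next at 23.6 CPM. None of the components had such a library.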

How the results depend on the processing

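The count of components called lower was 3 in every alternative not added after seeing the data, except the filter of 10 counts in every library (2) and the most distal segment of each gene (0 lower and 0 higher of 4 tested, by edgeR, with 1 higher at an unadjusted p under 0.05). The most distal segment also gave 231 genes higher and 335 lower of 5087, and 2 genes around the complexes higher and 3 lower, with Akt2 at 0.70. Total counts in place of TMM gave 540 genes higher and 1813 lower and a median of −0.20, with 0 components and 3 surrounding genes higher, against 920 and 1363 genes with TMM and 1262 and 1206 with upper quartile. With a library left out, between 0 and 1 components and between 3 and 6 surrounding genes were higher. The replicate number as a block gave 0 components (1 at an unadjusted p under 0.05) and 3 surrounding genes higher, and 662 genes higher and 1172 lower in all. Same-numbered libraries deviated together with correlations between −0.43 and 0.16, and no library correlated best with its own number, so the numbers were not taken as pairs. End segments only, added after seeing the data, gave 340 genes higher and 481 lower, 0 components in either direction, and 3 surrounding genes higher and 4 lower, with Akt2 at 0.79. Intron segments only, also added, gave 410 genes higher and 432 lower of 1439, 0 components higher and 3 lower of 3, and 2 surrounding genes higher and 4 lower of 8, with Rps6kb2 at 0.094. The causes of these shifts were not tested, and the fits on part of the segments also tested fewer genes. Depth limits Rheb, with between 4.21 and 15.1 CPM per library, and Rptor in ASO, with between 1.87 and 5.48 CPM.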
